A study of Homo sapiens with 6 samples.

Results

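Ephrins are the membrane-bound ligands of the Eph receptor tyrosine kinases, and all 8 genes that encode them in the deposited table (EFNA1, EFNA2, EFNA3, EFNA4, EFNA5, EFNB1, EFNB2 and EFNB3) were followed here, out of 23284 genes. They were taken by gene name and not by their values, but the list was chosen with earlier results of these data known. Messenger RNA was measured while WA01 cells, an established human embryonic stem cell line (also called H1) of wildtype genotype, were turned into neural crest. The groups were ES cells on day 0, preNC (pre-neural crest) cells on day 3 and NC (neural crest) cells on day 5, with 2 libraries each. For every library the labels list the same culture, namely Accutase-detached cells plated on Matrigel at 20000 per cm2 in DMEM/F12 with 2% B27, Glutamax, 0.5% bovine serum albumin and 3 µM CHIR 99021, a GSK3 inhibitor that turns on WNT signalling, joined for the first 2 days by Y-27632, an inhibitor of ROCK kinases, at 10 µM. The ES libraries carry that text too, so it does not show what the day 0 cells had received.

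Eph and ephrin proteins act where cells touch. EFNA ligands sit on the outer membrane by a lipid (GPI) anchor and bind mostly EPHA receptors, whereas EFNB ligands cross the membrane, bind mostly EPHB receptors and EPHA4, and can signal back into the cell that carries them through a cytoplasmic tail. In vertebrate embryos the system keeps cell populations apart, steers growing axons and guides streams of migrating neural crest.

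Each level is the authors' group FPKM (fragments normalised for transcript length and sequencing depth), 1 value per gene and day for the 2 libraries together, so no value per library, no SD and no order of levels tested between genes can be given, and the depth is unknown. Fold changes are log2 ratios of these FPKM values, later day over earlier day. Values after ± are standard errors worked back from the deposited test statistics, and intervals are 95% intervals built on them. Both are descriptions, and they did not always match the deposited p. A gene is said to have risen or fallen where its deposited q lies below 0.05. The smallest deposited p, 5e-05, goes with q 0.000596, so this q is a floor and does not rank the genes that share it. The labels do not say whether the 2 libraries of a day came from separate cultures, so q may measure only the technical spread.

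The labelled stages were checked against marker lists. The summed FPKM of 5 embryonic stem cell markers was 1763 on day 0, 161 on day 3 and 53.6 on day 5. The border list (5 genes) was led by MSX1 (0.503, 4.41 and 73.2) and PAX3 (0.253, 3.36 and 39.9) and summed to 1.1, 10.1 and 143, and 6 neural crest markers summed to 30.8, 14.7 and 58.8. FOXD3, which is also made by stem cells, held 17.9 of the day 0 value and stood at 0.876 and 15.4 on days 3 and 5. ETS1 dipped on day 3 too (7.27, 1.11 and 6.14). Neither was called on day 5 against day 0 (q 0.736 and 0.676 in the authors' deposited table). SOX10 stood at 1.82, 3.87 and 6.33, SOX9 at 3.14, 4.48 and 18.1, SNAI2 at 0.628, 4.18 and 8.24, and TFAP2B at 0.019, 0.182 and 4.57. Markers of neural progenitors (4 genes) summed to 50.2, 124 and 102, most of it NES (48.5, 102 and 84.3). The others took different courses, SOX1 at 0.985, 19.2 and 1.46, PAX6 at 0.393, 1.86 and 15.3, and HES5 at 0.272, 1.02 and 0.844. Markers of neurons summed to 203, 296 and 138, nearly all of it TUBB3 (202, 292 and 136), and 1, 3 and 1 of these 4 markers reached an FPKM of 1. Mesendoderm markers summed to 5.43, 3.50 and 1.73, and epidermal and placodal ones to 0.170, 0.310 and 2.14. The part of such cells in the results below was not tested, and in bulk RNA fewer cells of a type and less RNA per cell cannot be told apart.

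All 8 ligands were detected and tested in every comparison. EFNA1 and EFNA3 had lower values on days 3 and 5 than on day 0, but the sum of all 8 stood higher. This summed FPKM was 56.9 on day 0, 169 on day 3 and 156 on day 5. The EFNB ligands accounted for most of the difference, at 17.2, 93.9 and 90.7, against 39.7, 75.1 and 65.6 for the EFNA ligands. The EFNB share of the ligand sum was thus 30.3% on day 0, 55.6% on day 3 and 58.0% on day 5. EFNB1 alone held 35.2% of the sum on day 3, and without it, a calculation added after seeing the data, the EFNB share was 26.5%, 31.5% and 46.4% on the 3 days. Between day 3 and day 5 the direction of the sums depended on scaling. The EFNB sum also joined opposite moves in this step. As deposited, EFNB1 went from 59.4 to 34.0, while EFNB2 and EFNB3 together, also computed after seeing the data, went from 34.5 to 56.7. The ratio of day 5 to day 3 was 0.925 for all ligands, 0.873 for EFNA and 0.967 for EFNB as deposited. After rescaling each day to the FPKM sum over loci of at least 200 bases it was 1.08, 1.02 and 1.13. Under scaling by the median ratio of genes it was 0.965, 0.911 and 1.01. Loci under 200 bases held 1.14%, 1.12% and 1.13% of the FPKM sum on days 0, 3 and 5. Leaving them out therefore changed little, and the first rescaling acted through the total FPKM of each day.

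**Figure D1:**
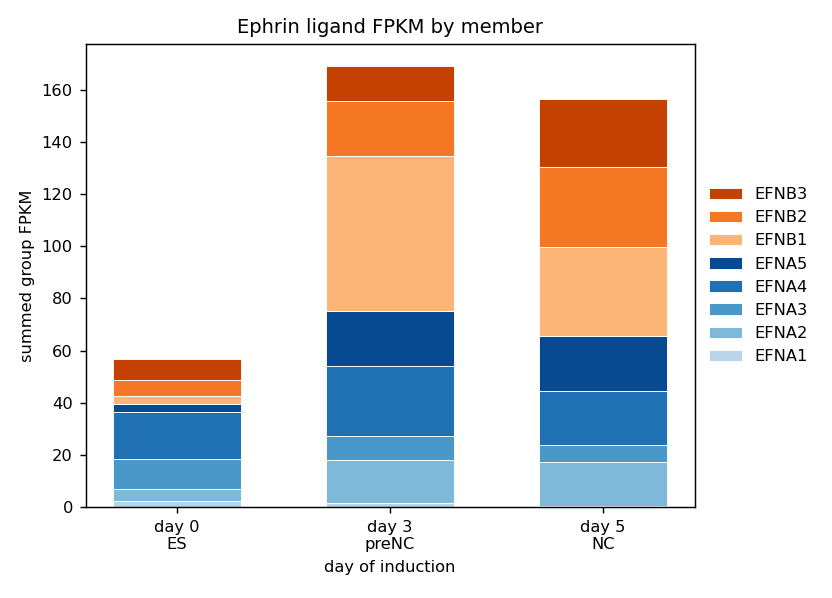
Stacked bars of the authors' group FPKM of the 8 ephrin ligands on day 0 (ES), day 3 (preNC) and day 5 (NC), EFNA members in blue and EFNB members in orange, with 1 value per group and no error bar. The orange part is 30.3% of the bar on day 0, 55.6% on day 3 and 58.0% on day 5, and EFNB1 is its largest piece on day 3.

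The order of the members changed as well. On day 0 EFNA4 (17.9) and EFNA3 (11.4) were the only ligands with an FPKM of at least 10, and EFNB1 (2.96) was second lowest. On day 3 EFNB1 led with 59.4, followed by EFNA4, EFNB2, EFNA5, EFNA2 and EFNB3, and 6 ligands reached 10. On day 5 the 3 EFNB ligands took the top places, EFNB1 with 34.0, EFNB2 with 30.7 and EFNB3 with 26.0, ahead of EFNA5, EFNA4 and EFNA2. EFNA1 was lowest on all 3 days, and the highest ligand exceeded it 7.23-fold on day 0, 37.7-fold on day 3 and 68.6-fold on day 5. Whether neighbours in these orders differ beyond error could not be tested, since the table gives no spread for a level. Against all genes in the table, EFNB1 stood at or above 52.8% of them on day 0, 93.2% on day 3 and 89.0% on day 5, EFNB2 at 62.5%, 81.8% and 87.9%, and EFNB3 at 67.2%, 74.6% and 85.9%. EFNA5 moved in the same way, with 54.0%, 81.7% and 83.0%, and EFNA1 stood at 50.8%, 46.8% and 37.7%.

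**Figure D2:**
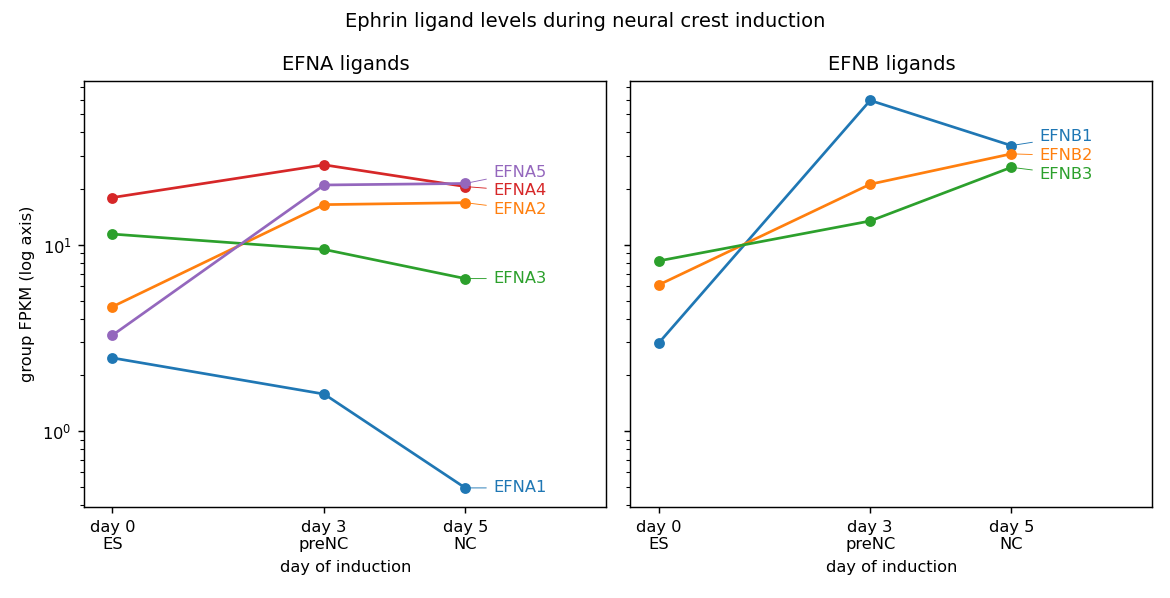
Group FPKM (log axis) of each ligand against the day of induction, EFNA ligands on the left and EFNB ligands on the right, each point standing for 2 libraries combined by the authors. EFNB1 is the lowest EFNB ligand on day 0 (2.96) and the highest on days 3 (59.4) and 5 (34.0), and EFNA1 is the lowest EFNA ligand throughout.

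EFNB1 (hg19 chromosome X, 68048840 to 68062006), the X-linked ligand whose mutation causes craniofrontonasal syndrome and which in mouse acts in neural crest and in tissue boundaries, had the largest rise of the family. Its FPKM was 2.96 on day 0, 59.4 on day 3 and 34.0 on day 5. Day 3 exceeded day 0 20.1-fold (log2 4.33 ± 0.36, q 0.000596 in the authors' deposited table), and 1.01% of all tested genes had a log2 ratio as high or higher. From there it fell, with 34.0 on day 5 against 59.4 on day 3 (log2 -0.80 ± 0.32, q 0.0179 in the authors' deposited table). That call was lost at a q threshold of 0.01. It was also lost when p was taken from the test statistic under a normal distribution (0.013) and then adjusted over all tested rows. Day 5 still exceeded day 0 11.5-fold (log2 3.52 ± 0.37, q 0.000596 in the authors' deposited table).

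EFNB2 (hg19 chromosome 13, 107142079 to 107187388), the main ligand of EPHB4 and a marker of arteries, rose early and was highest on day 5. Its FPKM was 6.08 on day 0, 21.1 on day 3 and 30.7 on day 5. The level on day 3 exceeded that on day 0 3.46-fold (log2 1.79 ± 0.45, q 0.000596 in the authors' deposited table). The further difference, 30.7 on day 5 against 21.1 on day 3, was not called (log2 0.54, interval -0.27 to 1.36, q 0.211 in the authors' deposited table). Over the whole course EFNB2 rose 5.05-fold (log2 2.34 ± 0.41, q 0.000596 in the authors' deposited table). The 4 endothelial markers summed to 34.6, 24.8 and 18.0 on days 0, 3 and 5, and their part in the EFNB2 values was not tested. PECAM1 (0.0674, 0.0784 and 0.0537) and CDH5 (0.124, 0.0963 and 0.0671) were near 0 on every day, while KDR (22.2, 3.14 and 2.65) and TEK (12.2, 21.5 and 15.3) were not.

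EFNB3 (hg19 chromosome 17, 7608520 to 7614693), known in mouse as a midline barrier to axons, was called higher in the second step and over the whole course. Its FPKM was 8.18 on day 0, 13.4 on day 3 and 26.0 on day 5. The first step was not called (log2 0.71, interval -0.01 to 1.43, q 0.0685 in the authors' deposited table). In the second step it rose 1.94-fold (log2 0.96 ± 0.36, q 0.00545 in the authors' deposited table). That call was lost when p came from the test statistic under a normal distribution (0.00876) and was then adjusted over all tested rows. Day 5 exceeded day 0 3.18-fold (log2 1.67 ± 0.37, q 0.000596 in the authors' deposited table). All 3 EFNB ligands had therefore risen by day 5. The table holds no test of one ligand's timing against another's.

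EFNA5 and EFNA2, which in chick and mouse set up topographic maps of retinal axons in the midbrain, rose by day 3 and had no call in the second step. EFNA5 (hg19 chromosome 5, 106712590 to 107006596) was at 3.27 on day 0, 20.9 on day 3 and 21.3 on day 5. Its first step was 6.39-fold (log2 2.67 ± 0.45, q 0.000596 in the authors' deposited table) and its second was small (log2 0.03, interval -0.77 to 0.83, q 0.972 in the authors' deposited table). EFNA2 (hg19 chromosome 19, 1286153 to 1301429) was at 4.65, 16.4 and 16.8 on the same days. It rose 3.53-fold by day 3 (log2 1.82 ± 0.36, q 0.000596 in the authors' deposited table), and its second step was small too (log2 0.04, interval -0.64 to 0.71, q 0.964 in the authors' deposited table). Both were higher on day 5 than on day 0, EFNA5 6.51-fold and EFNA2 3.61-fold, each at q 0.000596 in the authors' deposited table.

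EFNA1 (hg19 chromosome 1, 155100349 to 155107386), the first ephrin described and a ligand of EPHA2, was the only member that fell over the whole course. Its FPKM was 2.47 on day 0, 1.58 on day 3 and 0.496 on day 5. The first step was not called (log2 -0.65, interval -1.91 to 0.61, q 0.367 in the authors' deposited table). In the second step it fell to 31.4% of the day 3 level (log2 -1.67 ± 0.72, q 0.0174 in the authors' deposited table). This call was lost at a q threshold of 0.01. It was also lost when p came from the test statistic under a normal distribution (0.02) and was then adjusted over all tested rows. Day 5 was at 0.2 times day 0 (log2 -2.32 ± 0.71, q 0.000596 in the authors' deposited table). On the log2 scale of FPKM plus 1, which damps changes of weakly expressed genes, these differences were -0.78 and -1.22.

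EFNA3 and EFNA4 were not called in any comparison. EFNA3 (hg19 chromosome 1, 155051348 to 155060014) stood at 11.4, 9.43 and 6.58 on days 0, 3 and 5. Its day 5 level was 57.7% of that on day 0 (log2 -0.79, interval -1.54 to -0.05, q 0.0862 in the authors' deposited table), so the implied interval lies below 0 while the q misses the threshold. EFNA4 stood at 17.9, 26.8 and 20.5, with intervals of -0.76 to 1.94 for day 3 against day 0 and -1.23 to 1.62 for day 5 against day 0. These intervals hold no change, and the first also holds a rise as large as that of EFNA2. EFNA4, EFNA3 and EFNA1 lie in that order on chromosome 1 (hg19). From the start of the locus given for EFNA4, which other genes share, to the end of EFNA1 is 101 kb. The locus given for EFNA4 (155006282 to 155042029) is also that of ADAM15, DCST1 and LOC100505666, and RefSeq lists an EFNA4-EFNA3 gene that starts where EFNA4 does. How reads of overlapping genes were assigned is not given in the sources used here, so the EFNA4 and EFNA3 values are uncertain. EFNA4, EFNA3 and EFNA4-EFNA3 lie on the same strand, so counting by strand would not separate them. Their neighbours ADAM15 (12.1, 13.8 and 13.1) and DPM3 (60.8, 53.9 and 76.4) were not called either, while SLC50A1, next to EFNA1, fell to 20.9 on day 5, against 36.3 on day 0.

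**Figure D3:**
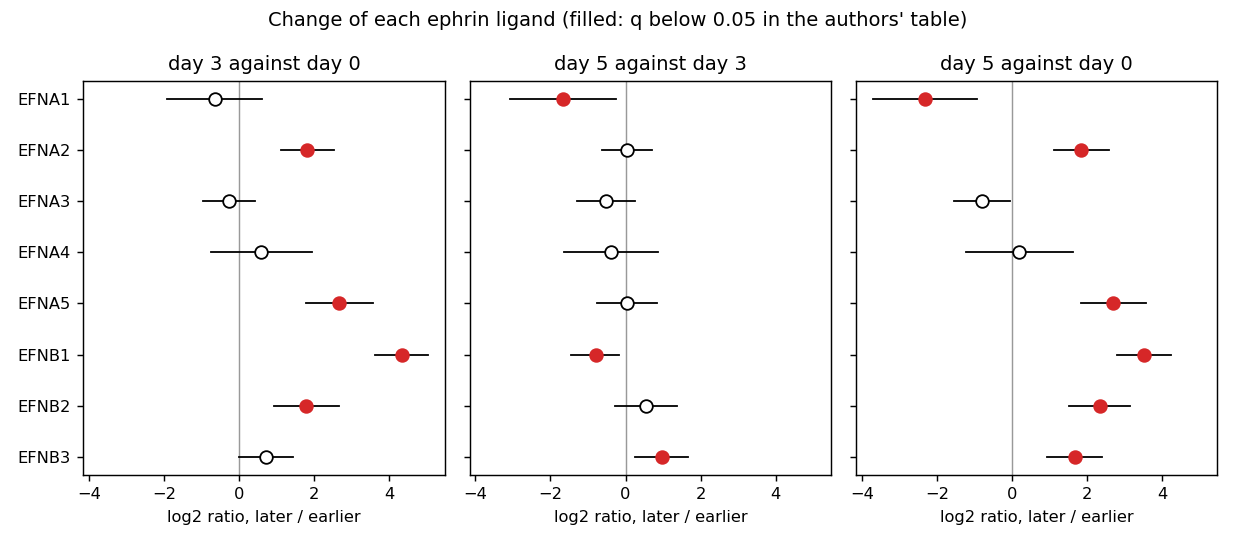
The log2 ratio of group FPKM, later day over earlier day, of each ligand in the 3 comparisons, with the 95% interval implied by the deposited test statistic as a bar and a filled point where q is below 0.05. By day 3 EFNA2, EFNA5, EFNB1 and EFNB2 are filled to the right of 0, and in the comparison of day 5 with day 0 EFNB3 joins them and EFNA1 is filled to the left.

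Counted together, 4 ligands rose and 0 fell on day 3 against day 0, of 8 tested (5 and 0 at an unadjusted p below 0.05 in the authors' deposited table). Over all tested genes 8.96% were called higher and 11.6% lower in that comparison. The ligands' median log2 ratio of FPKM plus 1 was 1.14, beside 0.03 over all tested genes. On day 5 against day 3, 1 rose and 2 fell of 8, where 5.93% of all tested genes were called higher and 6.68% lower, and the medians were -0.17 and -0.04. On day 5 against day 0, 5 rose and 1 fell of 8, where 12.2% of all tested genes were called higher and 14.7% lower, and the medians were 1.61 and -0.01. The 3 comparisons share their groups in pairs and are not independent of one another.

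**Figure D4:**
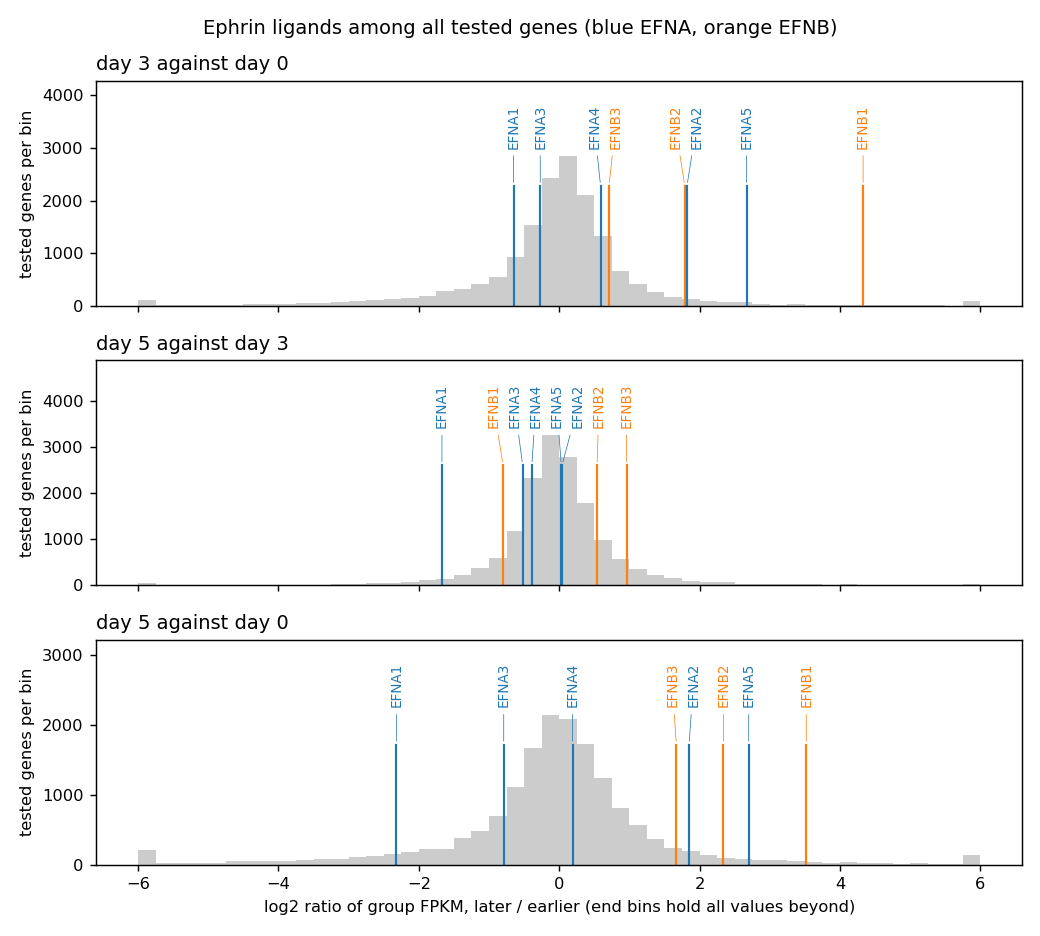
Grey bars count all tested genes by log2 ratio of group FPKM, later day over earlier day, in bins of 0.25, and vertical lines mark the EFNA (blue) and EFNB (orange) ligands. On day 3 against day 0, EFNB1 lies at 4.33 and EFNA5 at 2.67, and genes beyond 6 in either direction are counted in the end bins; on day 5 against day 0, EFNA1 lies at -2.32.

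Promoter windows, from 250 bases before to 50 bases after a gene's start, were taken from RefSeq (GRCh38.p14) for 7 of the 8 ligands. The windows of the 3 ligands with the largest rise by day 5 and of EFNA1, the one that fell over the whole course, are shown 5′ to 3′ so that their composition can be compared. They are EFNB1 (chrX:68828771-68829070, plus strand), EFNA5 (chr5:107670888-107671187, minus strand), EFNB2 (chr13:106535613-106535912, minus strand) and EFNA1 (chr1:155127626-155127925, plus strand). Capitals mark matches, on either strand, to GCCNNNGGC (a consensus of AP-2 factors) and CANNTG (the E-box); a core of TCF/LEF factors, CTTTGAT, was searched too.
EFNB1: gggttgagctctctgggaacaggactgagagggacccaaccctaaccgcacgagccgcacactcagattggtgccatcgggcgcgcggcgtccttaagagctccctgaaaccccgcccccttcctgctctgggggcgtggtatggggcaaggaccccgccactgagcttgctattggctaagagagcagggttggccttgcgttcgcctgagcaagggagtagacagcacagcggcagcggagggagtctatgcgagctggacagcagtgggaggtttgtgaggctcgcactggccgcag
EFNA5: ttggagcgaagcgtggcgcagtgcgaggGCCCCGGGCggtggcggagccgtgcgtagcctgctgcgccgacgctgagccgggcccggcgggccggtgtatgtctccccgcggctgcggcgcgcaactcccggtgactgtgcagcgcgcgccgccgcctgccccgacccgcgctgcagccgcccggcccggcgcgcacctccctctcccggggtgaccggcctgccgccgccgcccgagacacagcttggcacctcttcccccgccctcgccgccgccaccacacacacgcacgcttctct
EFNB2: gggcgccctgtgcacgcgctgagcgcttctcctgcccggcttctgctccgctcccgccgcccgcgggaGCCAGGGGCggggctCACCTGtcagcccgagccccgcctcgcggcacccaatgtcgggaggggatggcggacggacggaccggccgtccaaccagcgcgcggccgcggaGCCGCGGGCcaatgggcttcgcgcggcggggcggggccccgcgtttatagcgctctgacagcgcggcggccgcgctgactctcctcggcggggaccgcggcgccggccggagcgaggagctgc
EFNA1: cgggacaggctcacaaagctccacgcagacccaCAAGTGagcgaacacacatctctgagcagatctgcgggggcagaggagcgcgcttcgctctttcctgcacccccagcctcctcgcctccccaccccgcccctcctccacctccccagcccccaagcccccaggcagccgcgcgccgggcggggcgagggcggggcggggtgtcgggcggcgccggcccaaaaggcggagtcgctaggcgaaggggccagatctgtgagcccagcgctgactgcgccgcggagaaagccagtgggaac
EFNB1 held none of the 3 motifs, EFNA5 held 1 GCCNNNGGC match 222 bases before the start, EFNB2 held GCCNNNGGC at 182 and 73 bases and CANNTG at 167 bases before the start, and EFNA1 held CANNTG at 217 bases before it. Among all 34941 windows of this length, 23.2% held GCCNNNGGC, 68.7% CANNTG and 2.63% CTTTGAT, and of the 7 ligand windows 4, 3 and 0 did. No match says only that these letters are not in the window. EFNB2 held 49 CpG pairs, EFNA5 and EFNA2 47 each, EFNA1 and EFNA3 28 each, EFNA4 20 and EFNB1 18, beside a median of 14 over all windows. No window was held for EFNB3, which also rose.

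The receptors these ligands bind were followed beside them. Of the 9 EPHA genes 8 were tested on day 3 against day 0, where 2 rose and 2 fell, beside 8.96% higher and 11.6% lower over all tested genes. On day 5 against day 3, 7 were tested, of which 1 rose and 1 fell, beside 5.93% and 6.68%. On day 5 against day 0, 8 were tested, of which 3 rose and 3 fell, beside 12.2% and 14.7%. EPHA7, a receptor of EFNA5, rose most. Its FPKM on days 0, 3 and 5 was 2.03, 4.68 and 33.3 (16.4-fold over the course, log2 4.03 ± 0.47, q 0.000596 in the authors' deposited table). EPHA4, which binds ligands of both classes, stood at 4.66, 23.9 and 15.2. It rose 5.14-fold by day 3 (q 0.000596 in the authors' deposited table), and the difference between day 5 and day 3 was not called (q 0.0744 there). EPHA2, the usual receptor of EFNA1, stood at 12.7, 19.2 and 24.4 and was higher on day 5 than on day 0 (log2 0.95 ± 0.33, q 0.00877 in the authors' deposited table), while EFNA1 itself was lower.

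Several EPHA genes were weak or fell. EPHA8 was at 3.17, 0.860 and 0.309 on days 0, 3 and 5 and fell by day 3 and over the course. EPHA3 (0.366, 0.368 and 0.0965) and EPHA6 (0.299, 0.0258 and 0.0289) fell at levels below an FPKM of 1, and EPHA5 was at most 0.0199 and not tested. EPHA1 had the widest difference, 0.396 on day 5 against 42.4 on day 0, without a call (log2 -6.74 ± 2.41, q 0.213 in the authors' deposited table). Its implied interval, -11.48 to -2.01, lies below 0 while the q misses the threshold. The same holds for day 3 against day 0 (interval -6.51 to -2.10, q 0.0796 in the authors' deposited table). The EPHA1 locus is shared with ZYX and 3 other genes, so its value is uncertain. EPHA10, which lacks kinase activity, stood at 1.38, 1.63 and 1.62 and was not called.

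EPHB receptors had 3 of 5 members higher and 1 lower on day 3 against day 0, where 8.96% and 11.6% of all tested genes were so called. EPHB4, the receptor of EFNB2, was the most abundant on each day and was not called, at 41.2, 37.2 and 34.3 on days 0, 3 and 5 (day 5 against day 0 log2 -0.27, interval -0.87 to 0.34, q 0.565 in the authors' deposited table). Its share of the summed EPHB levels was 76.0% in ES cells, 53.6% in preNC cells and 51.5% in NC cells. EPHB1 rose in both steps, at 2.17, 9.29 and 22.0 (10.1-fold over the course, log2 3.34 ± 0.41, q 0.000596 in the authors' deposited table). EPHB2 (5.28, 15.6 and 6.14) and EPHB3 (0.576, 5.41 and 2.34) rose by day 3 and fell by day 5, the falls having q 0.000596 and 0.00545 in the authors' deposited table. EPHB6, which lacks kinase activity, fell to 1.82 on day 3, against 5.03 on day 0. In the second step 1 of 5 EPHB genes rose and 2 fell, beside 5.93% and 6.68% of all tested genes. Over the whole course 2 of 5 rose and 1 fell, beside 12.2% and 14.7%.

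**Figure D5:**
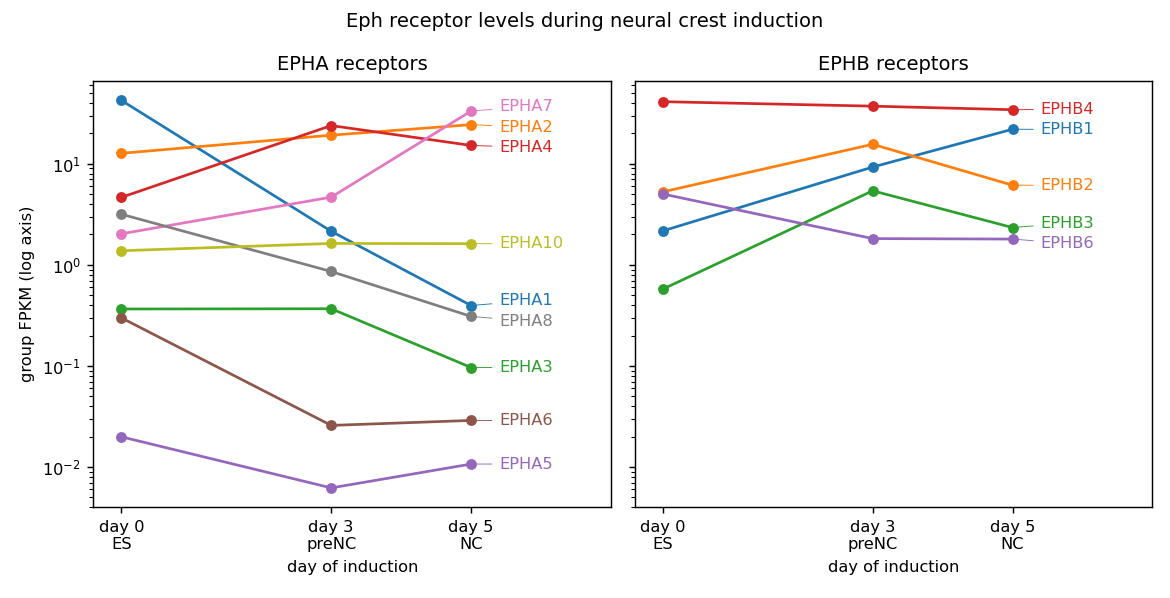
Group FPKM (log axis) of the EPHA receptors (left) and EPHB receptors (right) against the day of induction, each point standing for 2 libraries combined by the authors. EPHA7 and EPHB1 climb to 33.3 and 22.0 on day 5, EPHA1 drops to 0.396 on day 5, and EPHB4 stays between 34.3 and 41.2.

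Over days 0, 3 and 5 the EPHA genes summed to 67.0, 52.8 and 75.3, and the EPHB genes to 54.3, 69.3 and 66.5. The ratio of day 5 to day 0 was 1.13 for EPHA and 1.22 for EPHB, beside 1.65 for EFNA and 5.27 for EFNB. The EPHA value rests on EPHA1, whose level is uncertain. Without it, a calculation added after seeing the data, the EPHA sum was 24.6, 50.7 and 75.0, and the ratio was 3.05. The ratio of day 5 to day 3 was 1.43 for EPHA, or 1.48 without EPHA1, and 0.959 for EPHB, beside 0.873 for EFNA and 0.967 for EFNB. No test of these ratios was possible.

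Of 20 genes listed as partners in Eph and ephrin signalling, 5 rose and 2 fell on day 3 against day 0, beside 8.96% and 11.6% of all tested genes. PTPN13, a phosphatase that binds the tail of EFNB ligands, rose 2.87-fold by day 3 and stood at 17.2, 49.3 and 60.1 on days 0, 3 and 5. TIAM1, an activator of Rac that binds Eph and ephrin-B proteins, rose 3.26-fold by day 3 (4.37, 14.3 and 13.6). The Src family kinases FYN (22.5, 47.5 and 30.1) and SRC (11.4, 18.9 and 14.4) and the exchange factor KALRN (0.641, 1.48 and 1.93) rose in the same step, SRC at q 0.0464 in the authors' deposited table although its implied interval, -0.06 to 1.52, holds 0. NCK2, an adaptor that binds phosphorylated EFNB tails, fell to 18.3 on day 3, against 37.8 on day 0, and VAV3 to 0.281, against 2.30. ADAM10, the protease that cuts ephrins from the surface, stood at 33.5, 32.4 and 37.2 and was not called.

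On day 5 against day 3, 1 of these 20 genes rose and 2 fell, a share near the 5.93% and 6.68% of all tested genes. NGEF (ephexin), which binds EPHA receptors, rose 2.71-fold to 3.06 on day 5, against 1.13 on day 3. CHN1, an effector of EPHA4 in mouse, fell to 17.2 on day 5, against 29.6 on day 3 (q 0.0296 in the authors' deposited table). GRB10, an adaptor that binds EPHB1, fell to 15.8, against 25.7 (q 0.0419 in the authors' deposited table). The implied intervals of both hold 0, at -1.63 to 0.06 for CHN1 and -1.49 to 0.07 for GRB10. The EFNB-binding PDZ protein SDCBP (syntenin) was not called, with 92.8 on day 5 against 59.5 on day 3 (q 0.0755 in the authors' deposited table). Over the whole course 3 rose (TIAM1, PTPN13 and KALRN) and 3 fell (VAV3, NCK2 and GRB10), a share near the 12.2% and 14.7% of all tested genes. Of the other partners that were called in no comparison, on days 0, 3 and 5 ITSN1 stood at 31.2, 29.7 and 27.6, YES1 at 30.0, 30.9 and 33.2, PTPN11 at 32.0, 31.7 and 32.0, and RASA1 at 15.0, 17.3 and 19.6. NCK1 stood at 13.3, 13.1 and 16.3, VAV2 at 12.9, 14.1 and 12.5, RGS3, which in mouse binds EFNB tails, at 9.57, 11.9 and 16.4, and GRIP1 at 3.14, 2.69 and 4.03.

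Genes with the most similar course were sought among 15374 other genes tested in all 3 comparisons, by the largest difference in log2 of FPKM plus 1 over the 3 days. EFNB1 had no close match: its nearest gene was GREB1L (2.38, 56.5 and 43.9), at a difference of 0.361. EFNA5 had none within 0.25 either, and its 3 nearest included EFNA2, at 0.404. For EFNB2 the nearest was FZD3, a WNT receptor (5.51, 20.2 and 32.1, difference 0.122), and for EFNB3 it was MXRA8 (8.86, 13.4 and 28.4, difference 0.121). ASXL1 was nearest to EFNA2 (0.161), ADRA2B to EFNA1 (0.102), CAMKMT to EFNA3 (0.038) and TAC3 to EFNA4 (0.058). The number of genes within 0.25 was 119 for EFNA4 and 78 for EFNA3, against 22 for EFNA1, 9 for EFNB3, 5 for EFNA2 and 2 for EFNB2.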

How the data were processed

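Per the submitters' processing notes, TopHat2 2.0.10, TopHat and Cuffdiff 2.1.1 were used on hg19; the sources used here do not give annotation, strand or read length. The authors deposited 1 table of 69852 rows, with an FPKM value per gene and group and, per comparison, the test statistic (used here as a score), p-value and q-value. The q-values equal a Benjamini-Hochberg adjustment of the deposited p-value over 48572 tested rows to within 5.25e-07. The smallest p is 5e-05. Of the 1000 lowest FPKM values checked on day 0, 982 were distinct. FPKM is divided by transcript length, so these values cannot show whether there is a step of 1 read. Loci start at base 0 in the table and are printed counted from 1. Ratios, sums and adjustments were computed with Python 3.11.15, pandas 2.3.3 and scipy 1.17.1, and the adjustment was tested on simulated data. The ligands and lists were chosen with earlier results of these data known. Named were all ligands, receptors and partners that were called or reached an FPKM of 5, the gene nearest to each ligand by pattern (3 were eligible), and, chosen after their values were seen, EPHA5, EPHA10, GRIP1 and the neighbours of EFNA1 and EFNA4.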

Additional observations from a re-analysis of the deposited data

How the results depend on the processing

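Of the ligand counts, that of day 5 against day 3 moved most, to 1 at a q threshold of 0.01 (EFNB3) and to 0 when p came from the test statistic under a normal distribution and was adjusted over all tested rows, although 3 ligands had such a p below 0.05 before adjustment and 3 were called in the authors' deposited table. In that comparison EPHA receptors had 1 call in place of 2 at a q threshold of 0.01, with the normal p and among genes that reached an FPKM of 1 on either day, and signalling partners had 1 in place of 3 at a q threshold of 0.01 and with the normal p. On day 3 against day 0 the normal p gave 4 partners in place of 7. Other counts of calls stayed within 1.5 times, also when p was adjusted within 1 comparison. Rescaling to the FPKM sum of loci of at least 200 bases subtracted a shift of -0.22 from every log2 ratio of day 5 to day 3. The shift was -0.23 for day 5 to day 0, which took that ratio to 1.94 for EFNA and 6.19 for EFNB. Scaling by the median ratio of genes gave 1.67 and 5.3. No log2 ratio of a ligand turned direction under a pseudocount of 0.1 or 1 or either scaling. No replicate could be left out, since the table holds group values. No paired analysis was possible because the columns carry no replicate number.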
